A study of Mus musculus with 12 samples.

Results

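The interleukin-2 (IL-2) receptor and its signalling chain were followed through 10 genes, picked by symbol from the table of read counts: the receptor chains Il2ra, Il2rb and Il2rg, the kinases Jak1 and Jak3, the transcription factors Stat5a and Stat5b, and the feedback inhibitors Cish, Socs1 and Socs2. All 10 were among the 25189 genes of the table, and all 10 passed the filter on low counts that left 13196 genes for testing. RNA had been sequenced from regulatory T (Treg) cells, a CD4 lineage that keeps other immune cells in check, sorted from spleens of 4-week-old female mice, with 4 libraries in each of 3 groups. Double-deficient cells carried the Foxp3∆EGFPiCre allele, in which the Foxp3 gene drives a fusion of a green reporter with Cre recombinase and makes no working Foxp3, and also lacked Rictor (Rictor∆/∆), a subunit particular to the kinase complex mTORC2. Foxp3-deficient cells carried the same Foxp3∆EGFPiCre allele with no change to Rictor given in the labels, and WT cells (Foxp3RFP) had functional Foxp3 with a red reporter. The mice named in the labels were Foxp3∆EGFPiCre/+Rictor∆/∆R26YFP females and females of the genotype Foxp3∆EGFPiCre/RFPR26YFP, both with a Cre-activated yellow reporter, and sorting took red or yellow CD4 cells. Both mutant groups thus share the disrupted Foxp3 allele, the labels name no other source of Cre, and no group analysed here had lost Rictor but kept Foxp3. Females with 1 such allele still have Treg cells that use the other Foxp3 allele. No label ties a library to a mouse or tells whether WT and Foxp3-deficient cells came from the same animals, and a p-value here rests on the spread between libraries, which may be technical.

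IL-2 is a growth and survival signal that Treg cells take up but hardly make. The alpha chain Il2ra (CD25) gives the receptor its high affinity, the beta chain Il2rb and the common gamma chain Il2rg carry the signal, and the kinases Jak1 and Jak3, bound to those signalling chains, phosphorylate STAT5A and STAT5B. The STAT5 proteins then turn on genes that include Il2ra itself and Cish, Socs1 and Socs2, whose products damp cytokine receptors, and Foxp3 is known in mouse Treg cells to hold Il2ra high and Il2 low.

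The best known STAT5 recognition sequence has the letters TTCNNNGAA, which read the same on both strands. Promoter windows of 300 bases (250 before to 50 after the RefSeq start, GRCm38.p6) were at hand for 8 of the 10 members, in 10 windows, and the pattern occurred in 1 of them, that of Cish, which holds it at 2 places that do not overlap. Of all 32851 RefSeq windows, 8.3% held it at least once and 0.46% at least 2 times. The stretch of Cish is printed because it is the member whose start carries the pattern: 30 bases of chr9:107296654-107296683, plus strand, with the matches in capitals at bases 1 to 9 and 12 to 20 counted from the RefSeq start.
Cish: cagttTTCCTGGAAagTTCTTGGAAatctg
A match of letters describes the sequence and does not show binding, and a window without one says only that these letters are not in it. Il2rb and Socs2 were not searched.

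Libraries held 15769737 to 26114044 reads in genes, and every member had at least 553 reads in every library. Levels are CPM, the deposited counts divided by a scaled library size, given in the order of the replicate numbers (2, 3, 4 and 5 in double-deficient cells, 1, 3, 4 and 5 in Foxp3-deficient and WT cells), with means ± SD of n = 4 per group. Foxp3 stood at 87.9 to 142 CPM across the 8 mutant libraries, against 556 to 705 CPM in WT libraries. Rictor stood at 141 ± 12.6 CPM in double-deficient, 189 ± 31.2 CPM in Foxp3-deficient and 148 ± 14.4 CPM in WT libraries, counted over the whole gene, so that its level does not check the deletion. Summed over 6 genes, T cell markers reached 5460 to 6070 CPM in double-deficient, 5450 to 6480 CPM in Foxp3-deficient and 5200 to 5420 CPM in WT libraries. The 8 B cell markers summed to 771 to 940 CPM in double-deficient, 672 to 835 CPM in Foxp3-deficient and 1260 to 1490 CPM in WT libraries, mostly from Ighm, with Ms4a1 at 0 in all Foxp3-deficient libraries, and the other lists of foreign cell types stayed at or under 148 CPM (CD8 and NK cells), 8.04 CPM (dendritic cells), 3.37 CPM (myeloid cells) and 1.02 CPM (erythroid cells). Reads without a unique alignment made up 31.1% to 33.1% in double-deficient, 23.0% to 29.5% in Foxp3-deficient and 25.9% to 28.5% in WT libraries. The part of B cell RNA and of these alignment shares in the results was not tested.

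In Foxp3-deficient relative to WT cells, the alpha and beta chains of the receptor and the inhibitors Cish and Socs1 fell, Socs2 rose, and Il2rg, the kinases and the STAT5 genes did not pass the test. In double-deficient cells Il2ra, Il2rb and Cish were higher than in Foxp3-deficient cells and lower than in WT cells, Socs2 was higher than in both, and Jak3, Stat5a and Stat5b were lower than in both. With a trend in principal transcript length and GC content removed, the Stat5a and Stat5b calls against Foxp3-deficient cells were lost. So was the Stat5b call against WT cells. Il2ra averaged 260.5 ± 37.1 CPM in double-deficient, 185 ± 29.4 CPM in Foxp3-deficient and 534 ± 17.6 CPM in WT libraries. Socs2 ran the other way, with 121 ± 14.1 CPM in double-deficient, 61.5 ± 16.8 CPM in Foxp3-deficient and 37.0 ± 2.49 CPM in WT libraries. In RNA from many cells at once, fewer cells with a transcript and less of it per cell cannot be told apart.

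Counted over the members, 5 of 10 passed between Foxp3-deficient and WT cells, 1 higher and 4 lower, where 13.7% of all genes tested passed (6.99% higher, 6.74% lower); with the length and GC trend of each library removed, by exonic length or by principal transcript, 7 passed, 1 higher and 6 lower. In double-deficient over Foxp3-deficient cells 7 of 10 passed, 4 higher and 3 lower, against 27.2% of all genes (13.9% higher, 13.3% lower; 3585 genes, or 2153 without double-deficient 5). With the principal transcript trend removed and the replicate number as a block, 4 members passed there, 4 higher and 0 lower by edgeR, so that the calls of Jak3, Stat5a and Stat5b ended. Between double-deficient and WT cells 9 of 10 passed, 1 higher and 8 lower, against 32.6% of all genes (15.8% higher, 16.8% lower). The median log2 change of the members was −0.20 in Foxp3-deficient over WT, 0.06 in double-deficient over Foxp3-deficient and −0.56 in double-deficient over WT cells, beside 0.00, −0.02 and −0.03 for all genes tested. The libraries of the groups did not overlap for 6 members in the first of these comparisons (17.8% of all genes), for 7 in the next (25.0%) and for 9 in the last (39.7%). The comparisons share libraries (each group serves in 2 of the 3), so their values stand side by side here and are not independent of each other. The members were chosen with earlier results of these data known. Each had at least 553 reads in every library, which not all genes tested had. Their counts beside the shares of all genes are therefore a description and not a test of the pathway.

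**Figure D1:**
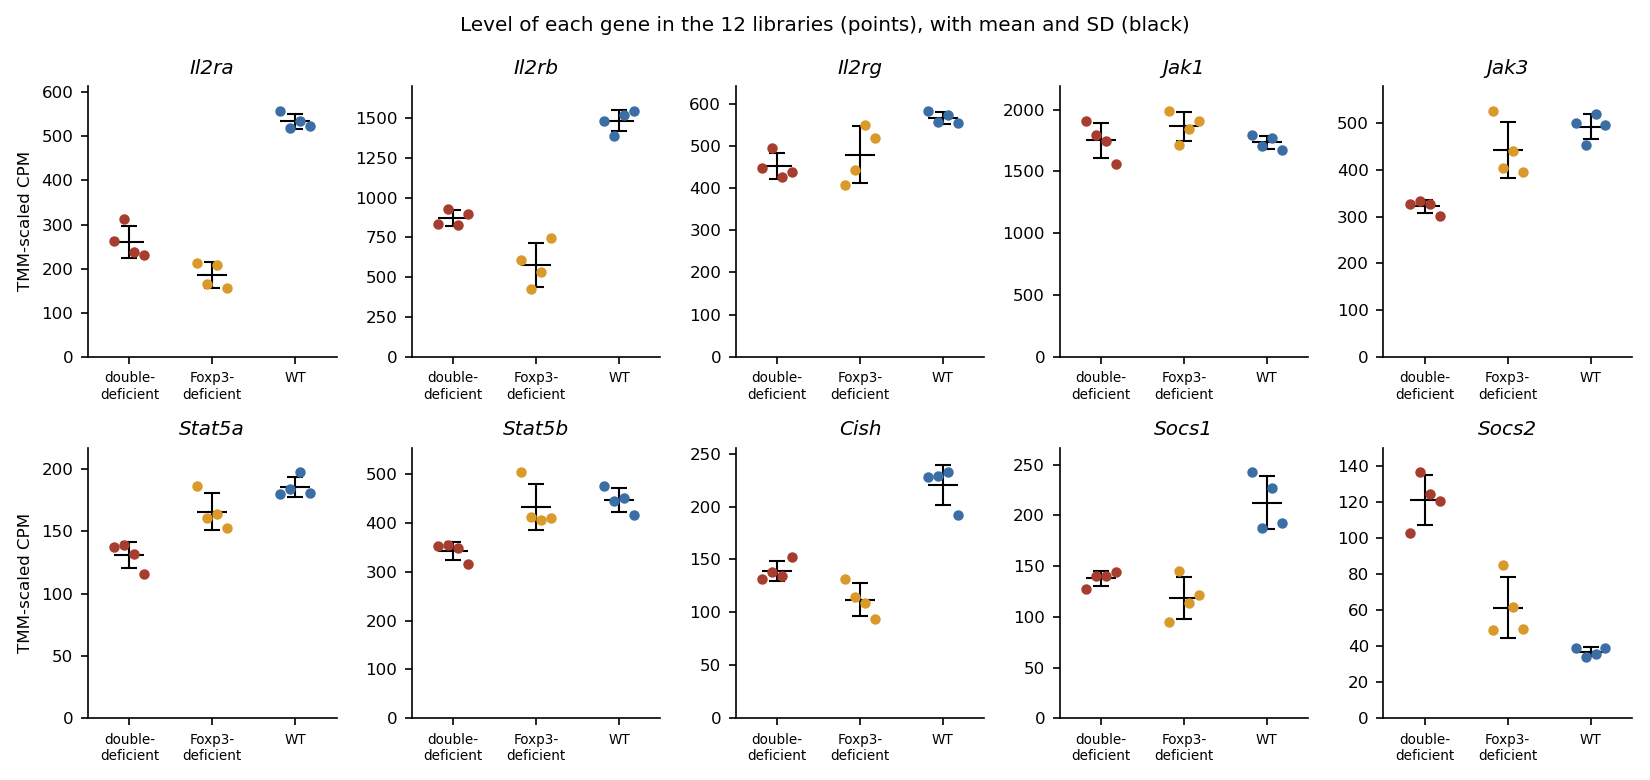
CPM of each of the 10 members (vertical axes, linear and starting at 0) in double-deficient, Foxp3-deficient and WT libraries; each point is 1 library and the bar marks the mean ± SD of 4. Il2ra and Il2rb lie highest in WT and lowest in Foxp3-deficient cells, Socs2 lies lowest in WT and highest in double-deficient cells, and the Jak1 points of all groups overlap.

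**Figure D2:**
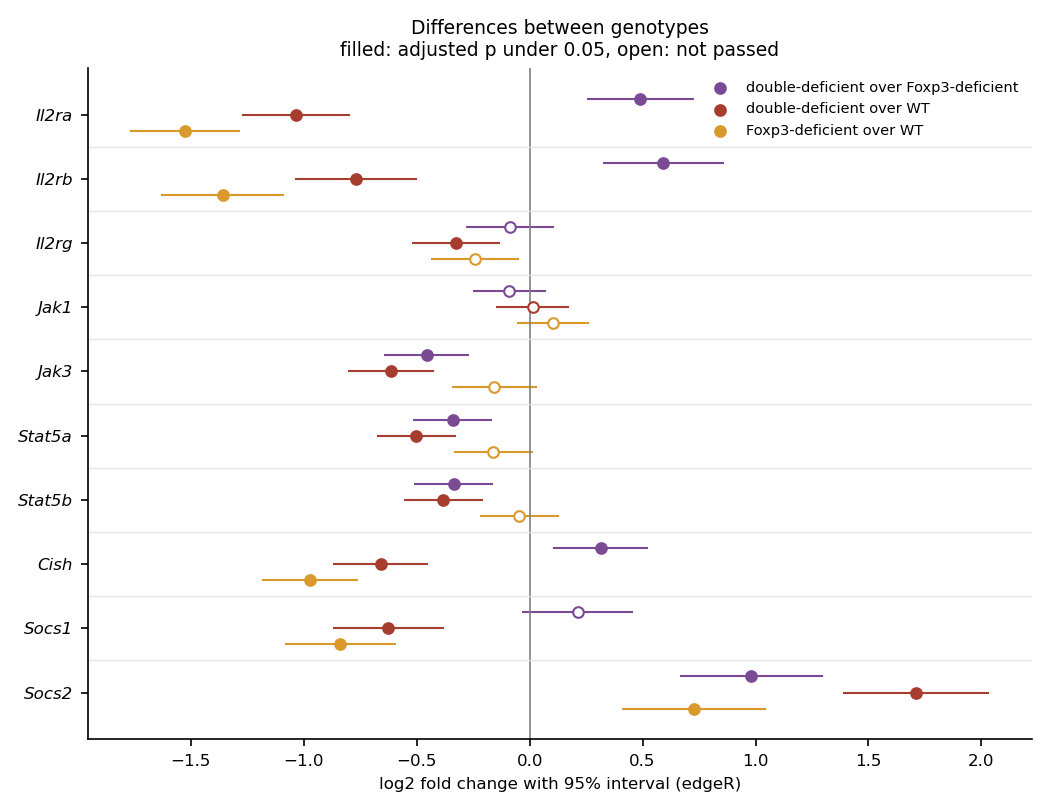
Log2 fold change of each member (horizontal axis, with 95% interval) for double-deficient over Foxp3-deficient, double-deficient over WT and Foxp3-deficient over WT; filled points passed an edgeR adjusted p of 0.05 and open points did not. Il2ra and Il2rb lie left of 0 against WT and right of 0 between the mutant groups, and Socs2 lies right of 0 in all 3 comparisons.

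Il2ra (ENSMUSG00000026770.5; chromosome 2, 11642807 to 11693193, plus strand, GRCm38) stood at 262, 312, 237 and 231 CPM in double-deficient libraries, at 214, 165, 207 and 155 CPM in Foxp3-deficient libraries and at 558, 518, 535 and 524 CPM in WT libraries. The 3 groups did not overlap: every WT library lay above every double-deficient one, and these above every Foxp3-deficient one. In Foxp3-deficient cells Il2ra fell 2.88-fold relative to WT (log2 change −1.53, SE 0.11, adjusted p = 2.22e-07 by edgeR, from the quasi-likelihood test, adjusted by Benjamini-Hochberg over the 13196 genes tested, as in every such value here). In double-deficient cells it was 1.40-fold higher than in the Foxp3-deficient (log2 change 0.49, SE 0.11, adjusted p = 0.00631 by edgeR) and 2.05-fold lower than in WT cells (log2 change −1.04, SE 0.11, adjusted p = 7.44e-06 by edgeR).

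Il2rb (ENSMUSG00000068227.9; chromosome 15, 78479256 to 78495271, minus strand), the chain that IL-2 shares with interleukin-15, had the same order. It was measured at 837, 926, 825 and 897 CPM in double-deficient, 611, 423, 530.2 and 748 CPM in Foxp3-deficient and 1479, 1390.2, 1521 and 1546 CPM in WT libraries. Again no library of one group reached into another, but the Foxp3-deficient libraries were spread widely: the highest, replicate 5, had 1.77 times the level of the lowest, replicate 3, against 1.12 times among double-deficient and 1.11 times among WT libraries. Il2rb fell 2.57-fold in Foxp3-deficient relative to WT cells (log2 change −1.36, SE 0.13, adjusted p = 2.57e-06 by edgeR). It was 1.51-fold higher in double-deficient cells than in the Foxp3-deficient (log2 change 0.59, SE 0.13, adjusted p = 0.00434 by edgeR) and 1.70-fold lower than in WT cells (log2 change −0.77, SE 0.13, adjusted p = 0.000369 by edgeR).

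Il2rg (ENSMUSG00000031304.18; chromosome X, 101264378 to 101268255, minus strand), the gamma chain used by several cytokine receptors, had the smallest fold changes of the receptor genes. Its level was 448, 496, 425 and 437 CPM in double-deficient, 406, 442, 549.8 and 519 CPM in Foxp3-deficient and 583, 556, 573 and 554 CPM in WT libraries. All mutant libraries lay below all WT libraries, while the mutant groups overlapped. The difference passed between double-deficient and WT cells (log2 change −0.33, SE 0.09, adjusted p = 0.013 by edgeR). It did not pass between Foxp3-deficient and WT cells (log2 change −0.24, SE 0.09, adjusted p = 0.0986 by edgeR; 95% interval −0.43 to −0.05), except without Foxp3-deficient 4 (−0.31, edgeR adjusted p = 0.0381). Between double-deficient and Foxp3-deficient cells it did not pass either (log2 change −0.09, SE 0.09, adjusted p = 0.506 by edgeR; 95% interval −0.28 to 0.11), except without Foxp3-deficient 1 and 3 (−0.24, edgeR adjusted p = 0.0302) and with a trend in principal transcript length and GC content removed (−0.28, edgeR adjusted p = 0.0314). Of its exonic bases, 30.5% overlap the gene model Gm20489 on the same strand, which was counted at 0 to 3 reads per library. That count does not tell how many reads from the shared bases were counted for neither gene.

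The ratio of Il2ra to Il2rb reads, taken within each library, was 0.313, 0.337, 0.287 and 0.257 in double-deficient libraries, 0.35, 0.391, 0.391 and 0.208 in Foxp3-deficient libraries and 0.377, 0.373, 0.352 and 0.339 in WT libraries. Every double-deficient library lay below every WT library, and Foxp3-deficient 5 stood alone at the bottom of its group. On the log2 scale the ratio differed by −0.28 between double-deficient and WT libraries (exact two-sided permutation p = 0.0286, the smallest possible at 4 against 4, with 0.0643 once adjusted by Benjamini-Hochberg over the 9 ratio tests). The ratio differed by −0.15 between Foxp3-deficient and WT libraries (exact permutation p = 0.857; adjusted 0.857), and that difference turned to 0.07 without Foxp3-deficient 5. Between double-deficient and Foxp3-deficient libraries it was −0.13 (exact permutation p = 0.6; adjusted 0.771).

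Jak1 (ENSMUSG00000028530.14; chromosome 4, 101152367 to 101265282, minus strand), the kinase on the beta chain, stood at 1904, 1793, 1746 and 1561 CPM in double-deficient, 1991, 1710.3, 1846 and 1908 CPM in Foxp3-deficient and 1792, 1708, 1768 and 1675 CPM in WT libraries. All groups overlapped. Its difference was 0.01 on the log2 scale between double-deficient and WT cells (95% interval −0.15 to 0.17; edgeR adjusted p = 0.912) and 0.10 between Foxp3-deficient and WT cells (95% interval −0.06 to 0.26; edgeR adjusted p = 0.448). In double-deficient over Foxp3-deficient cells it was −0.09 (95% interval −0.25 to 0.07; edgeR adjusted p = 0.394).

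Jak3 (ENSMUSG00000031805.17; chromosome 8, 71676296 to 71690575, plus strand), the kinase on the gamma chain, was lower in double-deficient cells than in both other groups. It had 326, 334, 328 and 301 CPM in double-deficient, 527, 404, 442 and 396 CPM in Foxp3-deficient and 500.5, 455, 520.3 and 497 CPM in WT libraries. The double-deficient libraries lay below all others, and the Foxp3-deficient and WT libraries overlapped, with Foxp3-deficient 1 the highest of all. Jak3 was 1.37-fold lower in double-deficient cells than in the Foxp3-deficient (log2 change −0.46, SE 0.09, adjusted p = 0.00258 by edgeR) and 1.53-fold lower than in WT cells (log2 change −0.61, SE 0.09, adjusted p = 0.00013 by edgeR). Between Foxp3-deficient and WT cells it did not pass (log2 change −0.16, SE 0.09, adjusted p = 0.295 by edgeR; 95% interval −0.35 to 0.03), except without Foxp3-deficient 1 (−0.25, edgeR adjusted p = 0.028) and with a length and GC trend removed, by exonic length (−0.24, edgeR adjusted p = 0.0461) or by principal transcript (−0.22, edgeR adjusted p = 0.0454). The neighbouring Insl3 shares 7.5% of the exonic bases of Jak3 and was counted at 12 to 68 reads per library, which likewise leaves out reads counted for neither gene.

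Stat5a (ENSMUSG00000004043.14; chromosome 11, 100859351 to 100885169, plus strand) and Stat5b (ENSMUSG00000020919.11; chromosome 11, 100780731 to 100850724, minus strand) lie side by side on the chromosome and encode closely related proteins. Stat5a was measured at 137, 139, 132 and 116 CPM in double-deficient, 186, 160.5, 164 and 152 CPM in Foxp3-deficient and 179.7, 184, 197 and 180.3 CPM in WT libraries. Stat5b was measured at 351, 354, 349 and 316 CPM in double-deficient, 503, 412, 405 and 410.3 CPM in Foxp3-deficient and 475, 444, 451 and 417 CPM in WT libraries. For both genes the double-deficient libraries lay below all others and the Foxp3-deficient and WT libraries overlapped.

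Stat5a was 1.27-fold lower in double-deficient cells than in the Foxp3-deficient (log2 change −0.34, SE 0.08, adjusted p = 0.00851 by edgeR) and 1.42-fold lower than in WT cells (log2 change −0.50, SE 0.08, adjusted p = 0.000356 by edgeR). Stat5b was 1.26-fold lower in double-deficient cells than in the Foxp3-deficient (log2 change −0.34, SE 0.08, adjusted p = 0.00891 by edgeR) and 1.30-fold lower than in WT cells (log2 change −0.38, SE 0.08, adjusted p = 0.00265 by edgeR). Neither passed between Foxp3-deficient and WT cells, where Stat5a had a log2 fold change of −0.16 (95% interval −0.34 to 0.01; edgeR adjusted p = 0.234) and Stat5b one of −0.05 (95% interval −0.22 to 0.13; edgeR adjusted p = 0.784).

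Transcript length moved with the double-deficient group. Across 11520 genes with a length, the double-deficient over Foxp3-deficient change had a log2 median of 0.32 in the shortest of 5 equal classes of principal transcripts and −0.27 in the longest (Spearman rho −0.417 across genes, which are not independent). The change of double-deficient over WT cells had 0.205 and −0.249 (Spearman rho −0.289), and that of Foxp3-deficient over WT cells had −0.11 and 0.04. Stat5b and Jak1 belong to the longest class, Il2ra, Il2rb, Jak3 and Stat5a to the next, Cish and Socs1 to the third, Socs2 to the second and Il2rg to the shortest. With each library's trend in principal transcript length and GC content removed, a setting added after seeing the data, the calls of Stat5a (−0.17, edgeR adjusted p = 0.0973) and Stat5b (−0.09, edgeR adjusted p = 0.363) between double-deficient and Foxp3-deficient cells were lost. So was that of Stat5b between double-deficient and WT cells (−0.16, edgeR adjusted p = 0.0683), while Stat5a stayed lower there. In double-deficient over Foxp3-deficient cells Jak3 stayed lower (−0.28, edgeR adjusted p = 0.0156), Il2rg now passed as lower (−0.28, edgeR adjusted p = 0.0314), and Jak1 turned to 0.09 without passing (edgeR adjusted p = 0.324). In the same setting Il2ra (0.53, edgeR adjusted p = 0.00387), Il2rb (0.76, edgeR adjusted p = 0.000648), Cish (0.37, edgeR adjusted p = 0.0101) and Socs2 (0.87, edgeR adjusted p = 0.000618) remained higher. Between Foxp3-deficient and WT cells, Jak3 (−0.22, edgeR adjusted p = 0.0454) and Stat5a (−0.22, edgeR adjusted p = 0.0329) then passed as lower. With exonic length in place of principal transcript length, the call of Stat5a between double-deficient and Foxp3-deficient cells was lost as well (−0.12, edgeR adjusted p = 0.193), and Jak3 and Stat5a (−0.26, edgeR adjusted p = 0.0119) passed as lower in Foxp3-deficient relative to WT cells.

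The Stat5a-to-Stat5b ratio stayed within a narrow range. It was 0.39, 0.392, 0.379 and 0.367 in double-deficient, 0.37, 0.39, 0.405 and 0.371 in Foxp3-deficient and 0.378, 0.414, 0.438 and 0.433 in WT libraries. The groups overlapped, and the log2 difference was −0.12 between double-deficient and WT (exact permutation p = 0.114, adjusted over the 9 ratio tests 0.171), −0.11 between Foxp3-deficient and WT (exact permutation p = 0.114, adjusted 0.171) and −0.01 between double-deficient and Foxp3-deficient libraries (exact permutation p = 0.8, adjusted 0.857). The genes share 608 stretches of 50 bases, 8.52% of the stretches of Stat5a (with those shared with Stat3) and 10.98% of those of Stat5b. A stretch was taken at every start position, so neighbouring stretches overlap and the shared sequence is far shorter than 608 separate stretches. A read that lies wholly within such a stretch cannot be assigned to one gene, and how many reads did was not tested.

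Cish (ENSMUSG00000032578.7; chromosome 9, 107296026 to 107302784, plus strand), whose product binds activated receptors and competes with STAT5 for them, stood at 132, 139, 134 and 153 CPM in double-deficient, 131, 114, 109 and 94.1 CPM in Foxp3-deficient and 228, 229, 233 and 192 CPM in WT libraries. As with Il2ra, WT libraries were highest and Foxp3-deficient libraries lowest, but the mutant groups nearly touched, at 132 CPM in double-deficient 2 and 131 CPM in Foxp3-deficient 1. Cish fell 1.96-fold in Foxp3-deficient relative to WT cells (log2 change −0.97, SE 0.10, adjusted p = 5.91e-06 by edgeR) and 1.58-fold in double-deficient relative to WT cells (log2 change −0.66, SE 0.10, adjusted p = 0.000175 by edgeR). It was 1.24-fold higher in double-deficient cells than in the Foxp3-deficient (log2 change 0.31, SE 0.10, adjusted p = 0.0294 by edgeR), a call lost without double-deficient 3 or 5, without Foxp3-deficient 4 or 5, and in a fit of only the groups compared (0.24 to 0.33, edgeR adjusted p = 0.0543 to 0.0888). Of the exonic bases of Cish, 11.5% overlap gene models on the other strand, and the strand setting of the counting is not given in the sources used here.

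Socs1 (ENSMUSG00000038037.5; chromosome 16, 10782240 to 10785536, minus strand), whose product blocks JAK kinases, was lower in both mutant groups. It was measured at 127, 139.8, 139.8 and 144 CPM in double-deficient, 95.1, 145, 114 and 122 CPM in Foxp3-deficient and 243, 188, 227 and 193 CPM in WT libraries. WT libraries lay above all mutant libraries, and the mutant groups overlapped. Socs1 fell 1.79-fold in Foxp3-deficient (log2 change −0.84, SE 0.12, adjusted p = 0.000102 by edgeR) and 1.54-fold in double-deficient cells (log2 change −0.63, SE 0.12, adjusted p = 0.000928 by edgeR), each relative to WT. Between double-deficient and Foxp3-deficient cells it did not pass (log2 change 0.21, SE 0.12, adjusted p = 0.181 by edgeR; 95% interval −0.03 to 0.46), except without Foxp3-deficient 3 (0.32, edgeR adjusted p = 0.031).

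Socs2 (ENSMUSG00000020027.18; chromosome 10, 95385362 to 95417180, minus strand), best known as a brake on growth hormone signalling, moved opposite to Cish and Socs1 relative to WT. It stood at 103, 137, 125 and 121 CPM in double-deficient, 49.0, 85.1, 61.9 and 49.8 CPM in Foxp3-deficient and 39.1, 34.0, 35.9 and 39.1 CPM in WT libraries. The 3 groups did not overlap, with double-deficient libraries highest and WT libraries lowest. Socs2 rose 1.66-fold in Foxp3-deficient relative to WT cells (log2 change 0.73, SE 0.15, adjusted p = 0.00334 by edgeR). It was 1.98-fold higher in double-deficient cells than in the Foxp3-deficient (log2 change 0.98, SE 0.15, adjusted p = 0.000544 by edgeR) and 3.27-fold higher than in WT cells (log2 change 1.71, SE 0.15, adjusted p = 9.5e-07 by edgeR).

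The ratio of Socs2 to Cish reads within each library was 0.778, 0.986, 0.93 and 0.791 in double-deficient, 0.374, 0.746, 0.567 and 0.529 in Foxp3-deficient and 0.172, 0.149, 0.155 and 0.204 in WT libraries. No groups overlapped: Cish had several times the reads of Socs2 in every WT library and nearly the same number in double-deficient 3. On the log2 scale the ratio was higher by 2.36 in double-deficient than in WT libraries, by 1.67 in Foxp3-deficient than in WT libraries and by 0.69 in double-deficient than in Foxp3-deficient libraries. Each difference gave an exact two-sided permutation p = 0.0286, the smallest possible with 4 against 4 libraries, and 0.0643 after adjustment over the 9 ratio tests. With 4 of the 9 ratio tests at that smallest value, none passed 0.05 after adjustment. In both mutant groups Socs2 lay above and Cish below all WT libraries. The separation of their ratio from WT follows from those levels and is no separate support.

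**Figure D3:**
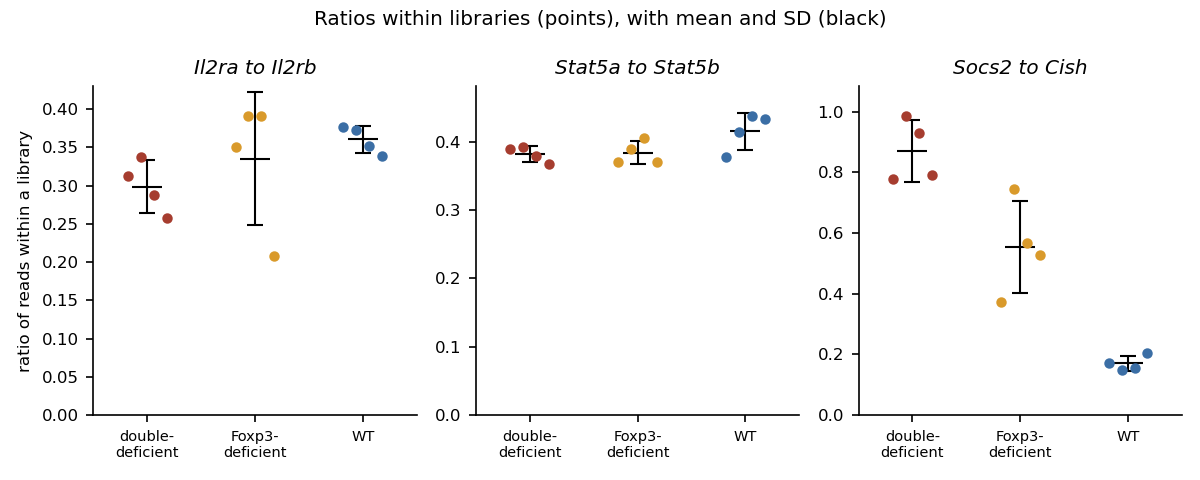
Ratios of reads between pairs of members (vertical axes, linear) in each double-deficient, Foxp3-deficient and WT library (points), with the mean and SD of 4 in black. Socs2 to Cish separates all 3 groups, with 0.778 to 0.986 in double-deficient, 0.374 to 0.746 in Foxp3-deficient and 0.149 to 0.204 in WT libraries, while Stat5a to Stat5b overlaps between groups.

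Levels of different genes were compared as CPM per kilobase of principal transcript. In double-deficient cells the order at the top was Jak1 (357 ± 29.1), Il2rg (270.0 ± 18.5) and Il2rb (208 ± 11.5), all apart, and Socs2 (54.6 ± 6.32) stood between Il2ra (59.0 ± 8.42) and Cish (48.9 ± 3.26), overlapping both. In Foxp3-deficient cells Jak1 (380.0 ± 24.1) and Il2rg (287 ± 39.9) kept clear of Il2rb (138 ± 32.7), which overlapped Jak3 (110.0 ± 14.9), and Il2ra (42.0 ± 6.65) lay among Stat5a, Socs1 and Cish without separation, above a Socs2 (27.7 ± 7.58) that overlapped Cish. In WT cells Il2rb (354 ± 16.3), Jak1 (354 ± 10.9) and Il2rg (339 ± 8.53) were highest, with overlapping libraries, followed well below by Jak3 (123 ± 6.89) and Il2ra (121 ± 3.98), which also overlapped. Stat5b (85.7 ± 4.59), Cish (77.3 ± 6.72) and Socs1 (73.1 ± 9.12) came next, each overlapping its neighbour, and Stat5a (47.7 ± 2.12) and Socs2 (16.7 ± 1.12) stood apart at the bottom. A level per kilobase rests on 1 annotated transcript per gene, which for Socs2 is 2222 of 9531 exonic bases. It takes no account of bases shared with other genes, such as those of Il2rg.

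**Figure D4:**
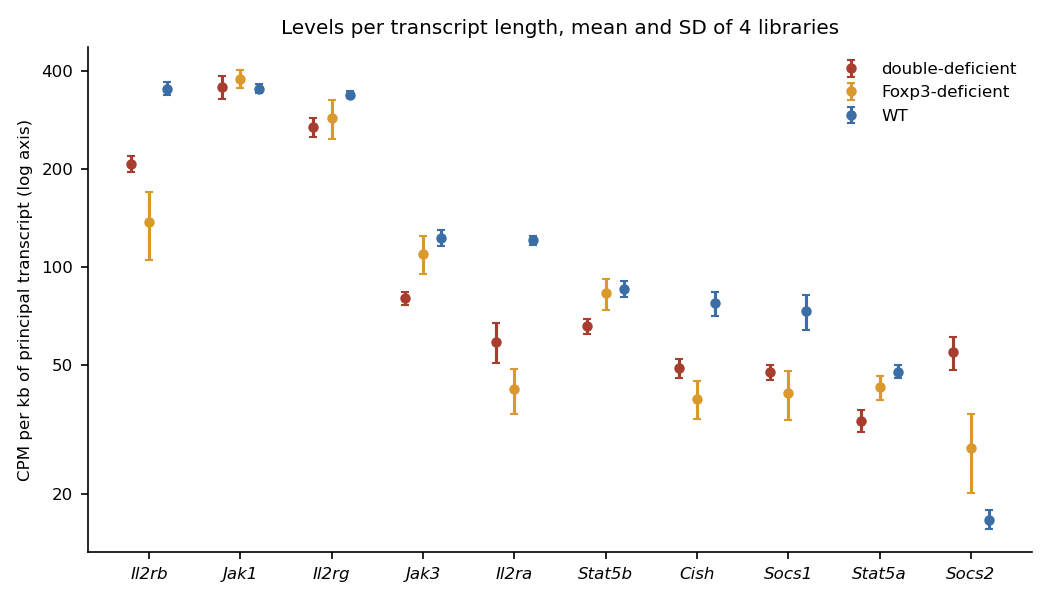
Mean level of each member in CPM per kilobase of principal transcript (log axis) in double-deficient, Foxp3-deficient and WT cells, with SD of 4 libraries. The receptor chain Il2rb lies well under Jak1 in both mutant groups and level with it in WT cells, and Socs2 lies near Cish in double-deficient cells and at the bottom of the order in WT cells.

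The Foxp3-deficient group was the least even. Its coefficient of variation was the largest of the 3 groups for 9 of 10 members, with 27.4% for Socs2 and 23.7% for Il2rb, and Jak1 was the exception at 6.35%, against 8.16% in double-deficient cells. In WT cells the coefficient ranged from 2.52% for Il2rg to 12.5% for Socs1. The unevenness was not particular to the members. Over all genes with enough reads, chi-square per degree of freedom between library pairs was 20.6 to 86.5 in Foxp3-deficient cells. It was 10.4 to 20.4 in double-deficient and 7.06 to 29.6 in WT cells. The share of all genes most variable in the Foxp3-deficient group was not counted.

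Around the members, a list of 46 other genes of the pathway (45 of them in the table, 42 tested) was read for its counts, beside the shares and medians of all genes given above. This list too was chosen with earlier results of these data known, so its counts are a description and not a test. Between Foxp3-deficient and WT cells 8 rose and 5 fell, with a median log2 fold change of 0.10. Il7r, the receptor chain for interleukin-7 and a gene that Treg cells hold low, had 359 ± 30.9 CPM in Foxp3-deficient and 199 ± 13.4 CPM in WT cells (log2 change 0.85, SE 0.09, adjusted p = 5.04e-06 by edgeR). Il2 itself was rare, with 1.60 ± 0.888 CPM in Foxp3-deficient and 0.339 ± 0.113 CPM in WT cells, and rose (log2 change 2.23, SE 0.44, adjusted p = 0.00246 by edgeR). The adaptor Gab3 (0.83, edgeR adjusted p = 5.82e-05) and the kinase Lck (0.34, edgeR adjusted p = 0.00182) rose as well. Those that fell with the smallest adjusted p were Il21r, the interleukin-21 receptor (log2 change −0.43, SE 0.07, adjusted p = 0.000482 by edgeR), Socs5 (log2 change −1.09, SE 0.19, adjusted p = 0.00101 by edgeR), Il15ra, the alpha chain of the interleukin-15 receptor (log2 change −0.51, SE 0.13, adjusted p = 0.0138 by edgeR; lost without WT 3 and without both Foxp3-deficient 1 and 3), and Crlf2 (log2 change −0.42, SE 0.13, adjusted p = 0.0382 by edgeR; lost without any 1 of the WT libraries, without Foxp3-deficient 1 or 4 and in a fit of only the groups compared).

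Of the 42 tested, 4 rose and 10 fell in double-deficient relative to Foxp3-deficient cells, with a median of −0.13. Il7r was higher again, at 581 ± 49.1 CPM in double-deficient and 359 ± 30.9 CPM in Foxp3-deficient cells (log2 change 0.69, SE 0.09, adjusted p = 0.000106 by edgeR). Il4, a helper cytokine whose receptor also uses the gamma chain, had 9.44 ± 3.99 CPM in double-deficient and 1.30 ± 0.715 CPM in Foxp3-deficient cells (log2 change 2.84, SE 0.43, adjusted p = 0.000548 by edgeR). Stat4 (0.64, edgeR adjusted p = 0.000762) and the adaptor Shc1 (0.25, edgeR adjusted p = 0.0167; lost without Foxp3-deficient 4) were the others that rose. Sh2b3, an adaptor that restrains cytokine signalling, was lower, with 72.9 ± 4.64 CPM in double-deficient and 114 ± 19.8 CPM in Foxp3-deficient cells (log2 change −0.65, SE 0.11, adjusted p = 0.00134 by edgeR). Il21r (−0.39, edgeR adjusted p = 0.00171), the exchange factor Sos1 (−0.46, edgeR adjusted p = 0.00173) and Stat2 (−0.49, edgeR adjusted p = 0.00346) followed, the Stat2 call being lost with the principal transcript trend removed and the replicate block (−0.26). Of all genes tested, 13.3% fell and 13.9% rose in this comparison. Of the 13 genes listed as other inhibitors of JAK-STAT signalling, 5 fell and 0 rose in it by edgeR: Sh2b3, Cbl, Cblb, Ptpn11 and Pias1. That heading is the list's own, and what each gene does to IL-2 signalling in these cells was not tested. With the principal transcript trend removed, only Sh2b3 of these 5 was still called. The call of Cbl was lost in 4 of 25 settings (log2 change nearest to 0, −0.16), each with a length and GC trend removed, and that of Cblb in 5 (nearest to 0, −0.10), those 4 and without double-deficient 5. The Pias1 call was lost in 6 settings, among them without double-deficient 3, without double-deficient 5 and without both Foxp3-deficient 1 and 3 (nearest to 0, −0.18), and that of Ptpn11 in 1 (nearest to 0, −0.30).

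Against WT, 9 of the 42 were higher and 12 lower in double-deficient cells, with a median of 0.06. Il7r stood 2.93-fold higher (log2 change 1.55, SE 0.09, adjusted p = 4.96e-09 by edgeR). Il4 had 9.44 ± 3.99 CPM in double-deficient and 0.916 ± 0.408 CPM in WT cells (log2 change 3.32, SE 0.44, adjusted p = 6.21e-05 by edgeR), and it was followed by Gab3 (0.77, edgeR adjusted p = 9.01e-05) and Shc1 (0.48, edgeR adjusted p = 0.000145). Il21r had 343 ± 11.2 CPM in double-deficient and 604 ± 10.8 CPM in WT cells (log2 change −0.82, SE 0.07, adjusted p = 7.12e-07 by edgeR). Sh2b3 (−0.77, edgeR adjusted p = 0.000148) and the ubiquitin ligase Cbl (−0.99, edgeR adjusted p = 0.000346) were lower.

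A further list held 26 genes known in T cells as targets of IL-2 or STAT5, several of which are also known as Treg genes that respond to Foxp3. The list was likewise chosen with earlier results known, so its counts beside those of all genes are no test. Between Foxp3-deficient and WT cells 5 rose and 8 fell, with a median log2 fold change of −0.16. Of all genes tested, 6.99% rose and 6.74% fell there. The costimulatory receptor Tnfrsf4 had 101 ± 14.2 CPM in Foxp3-deficient and 354 ± 34.8 CPM in WT cells (log2 change −1.81, SE 0.13, adjusted p = 9.35e-08 by edgeR). Its relative Tnfrsf18 (−1.17, edgeR adjusted p = 3.96e-05), the transcription factor Ikzf2 (−1.31, edgeR adjusted p = 0.000151) and the interleukin-33 receptor Il1rl1 (−2.08, edgeR adjusted p = 0.000264) fell with it. Besides Il7r, a gene that IL-2 is known to lower, those that rose were led by the kinase Pim2 (0.69, edgeR adjusted p = 1.27e-05), the transcription regulator Id2 (1.40, edgeR adjusted p = 0.000632) and the cyclin Ccnd3 (0.49, edgeR adjusted p = 0.00131).

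Of the 26 targets, 11 rose and 1 fell in double-deficient relative to Foxp3-deficient cells, with a median of 0.31. Of all genes tested, 13.9% rose and 13.3% fell there. Without Foxp3-deficient 3, 16 targets rose and 3 fell, while the genes called in all went from 3585 to 4430. Il7r, which IL-2 is known to lower, was among the 11 that rose, so the count does not follow 1 direction of IL-2 action. Pim2, a survival kinase, had 165 ± 9.08 CPM in double-deficient and 95.3 ± 5.36 CPM in Foxp3-deficient cells (log2 change 0.79, SE 0.08, adjusted p = 9.58e-06 by edgeR). Tnfrsf18 (1.07, edgeR adjusted p = 0.000236) and Tnfrsf4 (0.73, edgeR adjusted p = 0.00107) rose as well. The gene that fell was Bcl6, a repressor that STAT5 is known to switch off, with 14.5 ± 0.859 CPM in double-deficient and 47.8 ± 10.6 CPM in Foxp3-deficient cells (log2 change −1.72, SE 0.14, adjusted p = 2.69e-06 by edgeR).

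Against WT, 9 of the targets were higher and 5 lower in double-deficient cells, with a median of 0.09. Of all genes tested, 15.8% were higher and 16.8% lower there. Pim2 (1.47, edgeR adjusted p = 2.13e-09), Id2 (2.25, edgeR adjusted p = 1.1e-05) and the phosphatase Dusp6 (1.02, edgeR adjusted p = 0.000243) were higher beside Il7r. Bcl6 (−1.59, edgeR adjusted p = 1.13e-06), Ikzf2 (−1.70, edgeR adjusted p = 1.19e-05), Tnfrsf4 (−1.08, edgeR adjusted p = 1.23e-05) and the lymphotoxin gene Lta (−0.81, edgeR adjusted p = 0.000145) were lower. Tnfrsf18 did not pass there (log2 change −0.10, SE 0.14, adjusted p = 0.631 by edgeR; 95% interval −0.40 to 0.21), at 270.3 ± 49.4 CPM in double-deficient and 289 ± 27.5 CPM in WT cells.

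**Figure D5:**
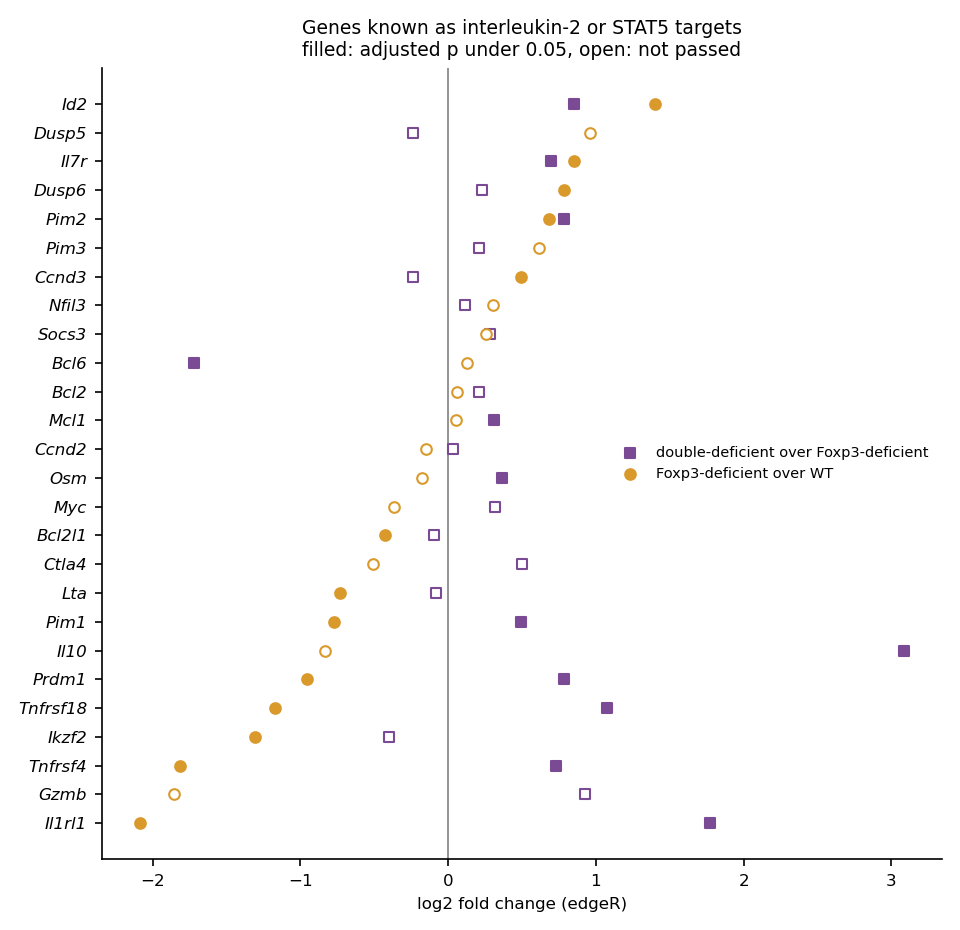
Log2 fold change (horizontal axis) of the 26 genes known as targets of IL-2 or STAT5 for double-deficient over Foxp3-deficient (squares) and Foxp3-deficient over WT (circles), ordered by the circles; filled points passed an edgeR adjusted p of 0.05. Most filled squares lie right of 0, with Bcl6 alone among them at the left, while the filled circles lie on both sides. The comparisons share the Foxp3-deficient libraries, which enter them with opposite sign.

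The genes whose profiles over the 12 libraries lay nearest to a member were found among 8933 genes by the root mean square distance of mean-centred log2 CPM. Nearest to Il2ra were Rragd (0.18), Gata1 (0.194) and Entpd1 (0.2). Rragd, a GTPase that carries amino acid signals to mTOR, had 10.4 ± 1.94 CPM in double-deficient, 7.11 ± 1.04 CPM in Foxp3-deficient and 24.0 ± 2.07 CPM in WT cells. Nearest to Il2rb were Socs5 (0.192), Irf5 (0.204) and Scamp1 (0.206). Those of Cish were closer, Rcn1 (0.115), Coro2a (0.128) and Wwp1 (0.144), and those of Socs2 were Gmfg (0.158), Rcn3 (0.216) and Klhdc2 (0.223). Gmfg had 93.7 ± 6.23 CPM in double-deficient, 52.9 ± 12.1 CPM in Foxp3-deficient and 31.6 ± 1.61 CPM in WT cells. For scale, the members themselves varied about their own means by 0.659 (Il2ra), 0.596 (Il2rb), 0.427 (Cish) and 0.73 (Socs2).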

How the data were processed

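Total RNA of sorted splenic Treg cells was converted with SMART-Seq v4 and sequenced, per the labels' protocols, which name the library kit in 2 ways (KAPA mRNA-Seq and KAPA Hyper Prep). The submitters' processing notes name STAR 2.5.1b, HTSeq and the build mm10 (GRCm38), and the series' design text says that STAR aligned the reads and HTSeq counted them. For the HTSeq version, the annotation release and the strand setting nothing is given in the sources used here. The deposited counts are raw whole numbers per gene. Summary rows of the counter were kept out of library sizes and tests: reads outside genes made up 4.63% to 9.27% and ambiguous reads 2.29% to 2.58% of a library. Within a group, every pair of libraries differed by more than counting noise.

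After filterByExpr and TMM scaling, edgeR 4.0.16 (R 4.3.3) was run (robust quasi-likelihood F test, 1 fit over all 12 libraries, no covariates), and a gene was called at a Benjamini-Hochberg adjusted p under 0.05 over all 13196 genes. The biological coefficient of variation was 17.4%. The fit was tested on simulated counts. For ratios of members, groups were compared on log2 values in exact two-sided permutation tests, with 0.5 reads added to each gene. Positions and lengths are from GENCODE M21 (97.3% of genes matched), and levels per kilobase use the longest APPRIS principal transcript. Profiles were compared on log2 CPM with a prior count of 2, among genes of at least 5 CPM on average.

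The members and gene lists were chosen with earlier results of these data known. Of each list and comparison, up to 4 called genes a direction with the smallest adjusted p were named, and for Il2ra, Il2rb, Cish and Socs2 the 3 genes nearest in profile. A gene that this rule names is not reported here. Chosen after their values were seen were the levels of Rragd and Gmfg, and Cblb, Cbl, Ptpn11 and Pias1 among the genes listed as inhibitors and Tnfrsf18 against WT. Alternatives were DESeq2 1.42.0, limma-voom (limma 3.58.1), upper quartile and relative log expression scaling, no filter or a stricter one, the replicate number as a block, a fit restricted to the groups compared, removal of the trend with exonic length and GC content, and leaving out each library or both Foxp3-deficient 1 and 3. Added after seeing the data was the same trend with principal transcript length.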

Additional observations from a re-analysis of the deposited data

Results flagged for a closer look

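Within a group of 4 libraries, a library was marked when its gap to the nearest other, over the group's range, passed Dixon's 95% critical value. Of 39 groups of values looked at, 3 were marked, where chance marks about 1 in 20. Stat5b stood at 316 CPM in double-deficient 5, below 349 to 354 CPM in the other double-deficient libraries. In Foxp3-deficient 1, Stat5b stood at 503 CPM, above 405 to 412 CPM in the rest of that group. Cish stood at 192 CPM in WT 5, below 228 to 233 CPM in the other WT libraries. Without Foxp3-deficient 1, the log2 change of Stat5b in double-deficient over Foxp3-deficient cells was −0.26 (edgeR adjusted p = 0.0397), and without WT 5 that of Cish in double-deficient over WT cells was −0.72.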

How the results depend on the processing

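For the 30 fold changes of the members, 25 other settings gave 750 values: 716 kept the direction and the side of the threshold, 15 no longer passed, 11 passed where the reported fit did not, and 8 changed sign. In all settings run, 18 of the 30 fold changes kept both. All 8 changes of sign were those of Jak1, which passed in none of these. Between double-deficient and Foxp3-deficient cells it was 0.0688 with the exonic length and GC trend removed, 0.0565 with the replicate block added, 0.0879 with the principal transcript trend removed and 0.0785 with the block added. Between double-deficient and WT cells it was −0.00228 with the stricter filter, −0.00634 with the replicate block, −0.00409 without WT 5 and −0.0281 without double-deficient 2, within a range of −0.0281 to 0.067 over left-out libraries.

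Of counts between double-deficient and Foxp3-deficient cells, the members called fell to 4 (4 higher, 0 lower by edgeR) with the principal transcript trend removed and the replicate block, where Jak3 had an edgeR adjusted p = 0.0599, Stat5a 0.113 and Stat5b 0.657. With the exonic length trend removed and the block, Stat5a had −0.15 (edgeR adjusted p = 0.237) and Stat5b −0.21 (edgeR adjusted p = 0.075). The target list reached 19 without Foxp3-deficient 3 and also without both 1 and 3, within 10 to 19 over left-out libraries. All genes called, 3585 as reported, were 2382 in a fit of only the groups compared, 2064 with the exonic length trend removed and the block (1314 higher, 750 lower), 1903 with the principal transcript trend and the block, and 2153 to 4430 over left-out libraries.

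Among ratios, Il2ra to Il2rb in double-deficient against WT libraries ranged from −0.34 to −0.21 on the log2 scale over left-out libraries (exact permutation p = 0.0286 to 0.0571), and in Foxp3-deficient against WT from −0.24 to 0.0659. Stat5a to Stat5b ranged from −0.17 to −0.10 in double-deficient against WT (exact permutation p = 0.0286 to 0.2) and from −0.0253 to 0.0176 in double-deficient against Foxp3-deficient libraries. Socs2 to Cish in double-deficient against Foxp3-deficient libraries ranged from 0.51 to 0.85 (exact permutation p = 0.0286 to 0.0571). The cause of these changes was not tested, beyond the fewer libraries that a left-out one leaves.

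Same-numbered WT and Foxp3-deficient libraries deviated together by correlations of 0.157, 0.102, 0.029 and 0.203. Libraries of these groups with different numbers had −0.261 to 0.188. Same-numbered pairs with a double-deficient library had −0.052 to 0.062. The numbers were not taken to pair libraries, and a pairing of WT with Foxp3-deficient libraries alone was not tested. The replicate block changed no call of a member; it gave 5, 7 and 9 members called in Foxp3-deficient over WT, double-deficient over Foxp3-deficient and double-deficient over WT, as reported, and 1783, 2756 and 3494 genes in all. The lowest count of a member in a library was 553 reads; counts without molecular identifiers are not independent molecules.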
